A study of Mus musculus with 6 samples.

Results

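The core circadian clock of the liver was followed through 10 genes, the activators Arntl, Clock and Npas2 and the repressors Per1, Per2, Per3, Cry1, Cry2, Nr1d1 and Nr1d2. They were found by gene name among the 54532 genes of the count table, and 9 of the 10 had enough reads to enter the test, which covered 13377 genes. Npas2 did not pass the filter on low counts. The liver transcriptome was read in male C57BL/6J mice made insulin resistant (IR) by a high-fat diet, given for 6 weeks from an age of 8 weeks. The mice were fasted for 16 h, and then 3 received an intraperitoneal dose of 0.75 units of insulin per kg and 3 received its vehicle, bovine serum albumin (BSA). Livers were taken 6 h later, and each library came from a separate mouse. The comparison asks which transcripts still respond to insulin in the IR state. Both groups carried the diet, the fast and an injection, so neither stands for a lean, fed or uninjected liver. The mice were kept on 12 h of light and 12 h of dark, and the clock time of injection or collection is not given in the sources used here.

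The mammalian clock is a transcription-translation loop that runs in nearly every hepatocyte. BMAL1, the product of Arntl, pairs with CLOCK or with its relative NPAS2 and binds E-boxes, which turns on the Per, Cry and Nr1d genes. PER and CRY proteins then enter the nucleus and block the pair, while the nuclear receptors REV-ERBα (Nr1d1) and REV-ERBβ (Nr1d2) repress Arntl and compete with the ROR activators for the same element. Feeding and insulin are known inputs to the liver clock, and transcripts of Arntl and of Nr1d1 normally peak at opposite times of day.

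Libraries held 18449986 to 21827619 counts. All values below are read counts normalised for library size by the trimmed mean of M-values (TMM), with CPM as their unit, and a positive log2 fold change means more transcript with insulin. Vehicle 2 and vehicle 3 stood apart from the other 4 libraries. Within the vehicle group, Pearson's r of log2 CPM between pairs of libraries was 0.878 to 0.948, and within the insulin group it was 0.980 to 0.985. These r values run across genes, and genes are no independent replicates. In vehicle 2, the deviation of a gene from its level elsewhere followed its GC content, with a slope of −1.13 log2 units per 10 percentage points, against slopes of −0.064 to 0.19 in the other 5 libraries. The clock genes span 40.9% GC (Clock) to 59.4% GC (Per1) in their longest transcript, so log2 fold changes are also given after an offset for GC content. All 5 hepatocyte markers were detected, with a summed level of 71073 to 165540 CPM in vehicle and 58445 to 74504 CPM in insulin libraries. Alb was most of this sum in vehicle 2 (138554 CPM), where Apoa1 was lowest of the 6 libraries (3901 CPM). The log2 fold change was 0.049 for Apoa1, and −0.41 to −0.89 for Alb, Ttr, Serpina1a and Cyp2e1. Summed erythroid markers (3 of 3 detected) ran from 395 to 1181 CPM with vehicle and from 292 to 448 CPM with insulin. Of the 4 pancreas markers, Prss2, Cpa1 and Ins2 were at 0 in all libraries, while Cela1 was at 14.5 to 18.3 CPM. In bulk liver, fewer cells of a type and less RNA per cell cannot be told apart.

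The elements through which these genes regulate each other were looked up in the RefSeq promoter windows of build GRCm38.p6, each from 250 bases before to 50 bases after a start site. Of 32851 windows, 7.15% held the E-box CACGTG, 3.38% the D-box TTATGNAA, 16.3% the ROR and REV-ERB half-site AGGTCA and 7.51% the cAMP response half-site TGACGT, on either strand. Matches in the stretches printed here do not overlap each other. The 13 windows of 9 members were searched. Per2 had no entry. E-box letters were found for Cry1 and Per1, D-box letters for Per1 and Per3, AGGTCA for Arntl, Clock, Nr1d2 and Per1, and TGACGT for Per1, while the windows of Npas2, Cry2 and Nr1d1 held none of these letters. The stretches below are shown because they carry the letters of the loop's E-box, D-box, REV-ERB and cAMP inputs at genes whose values follow. Capitals mark the matched letters, each stretch is written 5′ to 3′ on the gene's strand, and a match is a description of sequence, not a bound site.
Per1, E-box and AGGTCA on the reverse strand, chr11:69098771-69098829, plus strand: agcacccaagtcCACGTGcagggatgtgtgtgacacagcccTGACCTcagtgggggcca
Per1, D-box, chr11:69098913-69098944, plus strand: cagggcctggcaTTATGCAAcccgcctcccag
Per1, TGACGT at its other start site, chr11:69100008-69100037, plus strand: gagctcagcggcTGACGTcggtttccctgg
Per3, a pair of D-boxes, chr4:151044804-151044882, minus strand: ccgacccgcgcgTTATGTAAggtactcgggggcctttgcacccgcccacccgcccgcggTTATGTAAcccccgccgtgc
Cry1, E-box, chr10:85185097-85185126, minus strand: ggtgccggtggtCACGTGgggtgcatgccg
Nr1d2, AGGTCA, chr14:18239166-18239195, minus strand: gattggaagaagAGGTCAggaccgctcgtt
Arntl, AGGTCA, just after the start site, chr7:113207530-113207559, plus strand: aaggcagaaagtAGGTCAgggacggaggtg

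Per kilobase of longest transcript, Nr1d2 was the most abundant of the 10 transcripts, at a mean of 15.9 CPM per kb over the 6 libraries and a range of 10.8 to 29.3 that lay above every value of the other members except Nr1d1. Cry2 (7.34 CPM per kb), Nr1d1 (6.42), Clock (4.52), Per1 (4.38), Cry1 (3.78), Per2 (2.85) and Per3 (1.54) followed in order of mean level. Arntl was at 0.812 CPM per kb, with a range of 0.298 to 1.09, and Npas2 at 0.0208. Neighbours in this order from Cry2 to Per2 overlapped in their ranges over libraries, with Nr1d1 alone spanning 1.80 to 16.2 CPM per kb and Per1 0.775 to 7.27. Per3 (1.30 to 1.75 CPM per kb) lay above every value of Arntl and below every value of Per2, whose lowest library was at 2.01. Arntl in turn lay above every value of Npas2, which reached 0.0580 CPM per kb at most.

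For candidate genes that respond to insulin, the study set stricter limits on fold change and p than those used here. The criteria of the study used here are those for differentially expressed genes. They ask for a log2 fold change of 0.35 or more in either direction and an unadjusted p under 0.05. No member passed them (0 of 9, edgeR quasi-likelihood test). Of all genes tested, 2.86% passed those criteria and 0 had an adjusted p under 0.05. No member was under an unadjusted p of 0.05 either. The count of 0 members past the criteria was also obtained with DESeq2, where 3.79% of all genes passed, with limma voom (2.78%), with a GC offset (3.53%) and with the replicate number as a block (2.40%). Adjusted p values of the 9 members ran from 0.852 to 0.962 (Benjamini-Hochberg over all genes tested), and from 0.503 to 0.9999 over the 15 alternative settings and tools. The log2 fold change was above 0 for Arntl, Per1, Per2, Per3 and Cry2 and below 0 for Clock, Cry1, Nr1d1 and Nr1d2, with a median of 0.049, against −0.017 over all genes tested. Groups did not overlap for Per2 alone, 1 of 9, against 12.3% of all genes tested, 6.25% with higher and 6.04% with lower values after insulin.

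**Figure D1:**
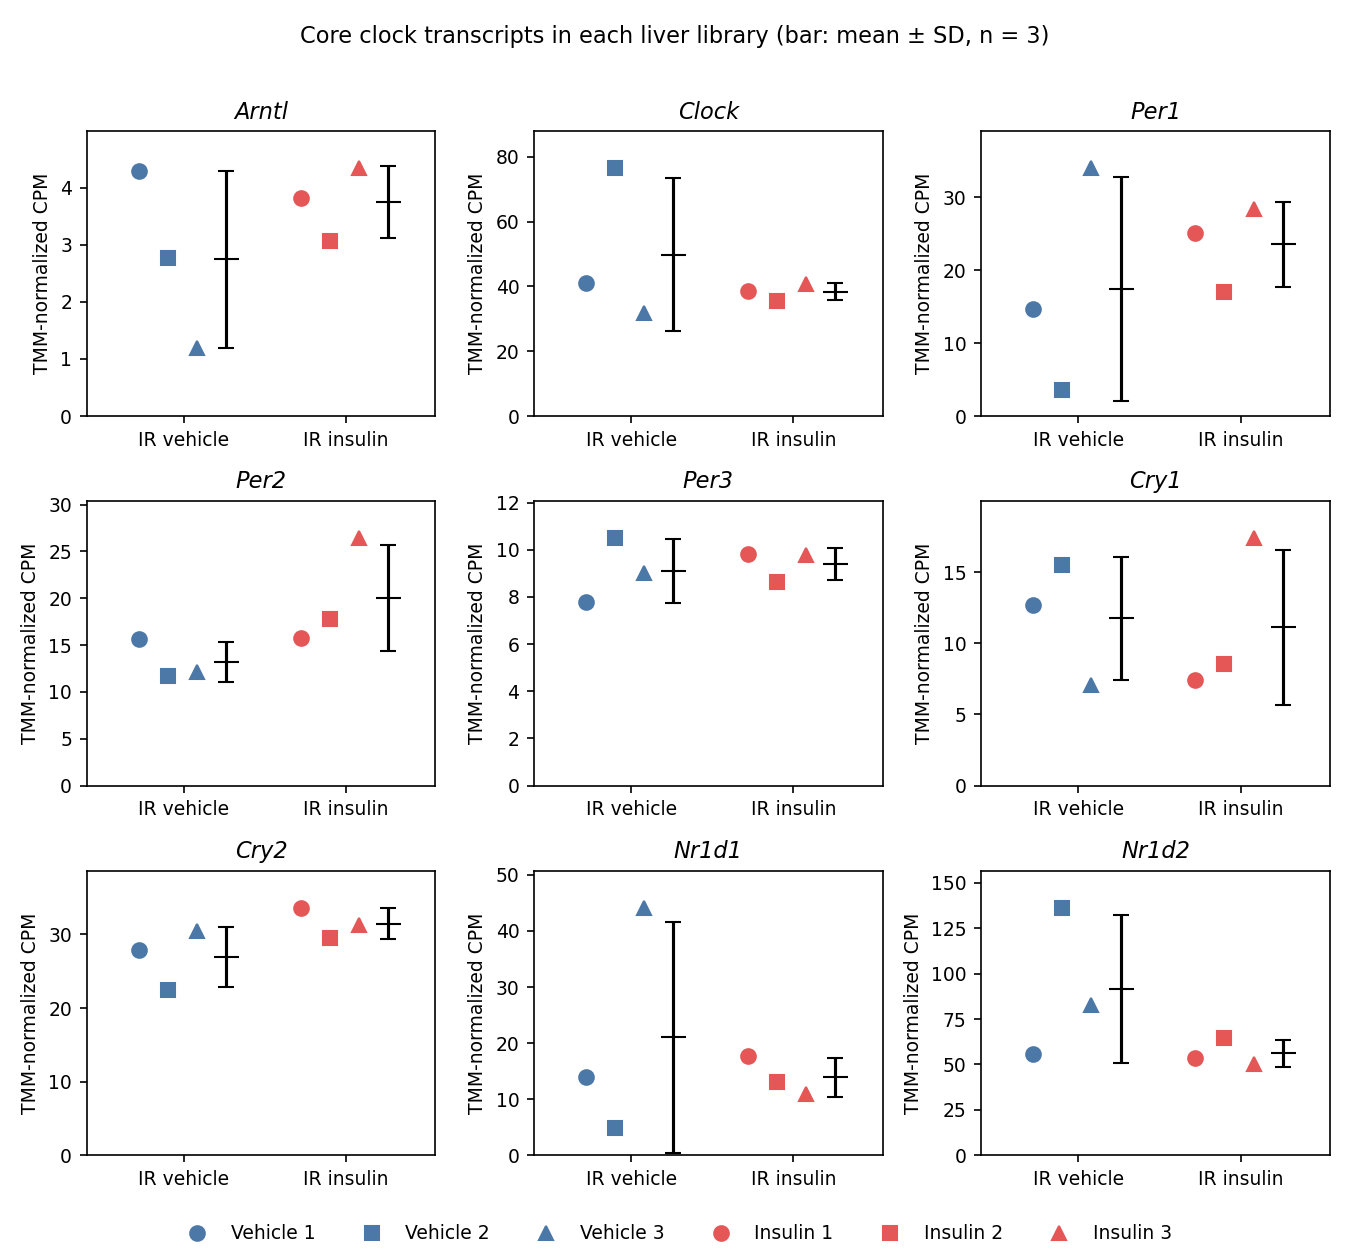
TMM-normalised CPM (y axis, linear and starting at 0) of the 9 tested clock genes in each vehicle-injected (blue) and insulin-injected (red) IR mouse, with the group mean ± SD (black, n = 3). The vehicle points of Nr1d1 spread from 4.91 to 44.2 CPM and those of Per1 from 3.62 to 34.0 CPM, and the insulin points of both lie inside that span.

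Among the activators, Arntl (ENSMUSG00000055116, chr7:113207465-113314126, plus strand, build 38) encodes BMAL1, the partner that the loop cannot run without. Its level was 4.28, 2.76 and 1.19 CPM in vehicle 1, 2 and 3, and 3.83, 3.07 and 4.34 CPM in insulin 1, 2 and 3. Vehicle 3 was the lowest of the 6 libraries, and the groups overlapped because vehicle 1 stood among the insulin mice. These values rest on 25 to 94 reads per library, and the 25 reads of vehicle 3 have an exact Poisson 95% interval of 16.2 to 36.9, below the interval of 64.3 to 101 around the 81 reads of vehicle 1. This interval covers counting error only. The group means were 2.75 ± 1.55 and 3.75 ± 0.635 CPM (SD, n = 3), and the log2 fold change was 0.45 ± 0.47 (SE, unadjusted p 0.365 by edgeR), with a 95% interval of −0.63 to 1.53. Without vehicle 3 this estimate was 0.085, and without vehicle 1 it was 0.93. It was 0.47 with the GC offset.

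Clock (ENSMUSG00000029238, chr5:76209868-76304792, minus strand) encodes the partner of BMAL1. Its level was 41.1, 76.4 and 31.9 CPM with vehicle and at 38.6, 35.6 and 40.8 CPM with insulin. The insulin mice sat close together, and vehicle 2, the library with the GC slope, was above all others while vehicle 3 was below all others. Between the groups, the log2 fold change was −0.38 ± 0.33 (SE, unadjusted p 0.291 by edgeR, 95% interval −1.14 to 0.39), and it became 0.073 without vehicle 2 and −0.038 with the GC offset. The same offset took the excess of vehicle 2 over the median library from 0.94 to 0.29 log2 units. Ube2n-ps1, a pseudogene on the same strand, lies inside Clock, with at most 161 counts per library.

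Npas2 (ENSMUSG00000026077, chr1:39193731-39363236, plus strand), the relative that can stand in for CLOCK, gave 1, 4 and 1 counts with vehicle and 1, 0 and 3 counts with insulin. The 0 of insulin 2 allows up to 0.130 CPM, the level of 3 counts. At this depth no difference was detectable, and no fold change is given.

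The Per genes encode the period proteins, which are rate-limiting parts of the repressor complex and include transcripts that respond fast to signals. Per1 (ENSMUSG00000020893, chr11:69095217-69109960, plus strand), whose windows carried all 4 searched motifs, was at 14.6, 3.62 and 34.0 CPM with vehicle and at 25.1, 17.1 and 28.4 CPM with insulin. Vehicle 2 held the lowest and vehicle 3 the highest of the 6 values, with the insulin mice between them. The means were 17.4 ± 15.4 and 23.5 ± 5.84 CPM (SD, n = 3), and the log2 fold change was 0.43 ± 0.65 (SE, unadjusted p 0.528 by edgeR, 95% interval −1.08 to 1.94). The estimate turned on which vehicle mouse was in the fit. It was −0.046 without vehicle 2. It was 1.36 without vehicle 3, at unadjusted p 0.0479 and adjusted p 0.522 by edgeR, in a fit where 6.55% of all genes passed the criteria. Per1 has the highest GC content of the members, and the GC offset brought its deficit in vehicle 2 from −2.48 to −1.01 log2 units relative to the median library, and its log2 fold change to 0.19.

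Per2 (ENSMUSG00000055866, chr1:91415982-91459324, minus strand), the other main period gene of the repressor complex, was at 15.7, 11.7 and 12.2 CPM with vehicle and at 15.8, 17.8 and 26.4 CPM with insulin. All 3 insulin mice were above all 3 vehicle mice, but vehicle 1 at 15.70 CPM and insulin 1 at 15.76 CPM were nearly level. The means were 13.2 ± 2.18 and 20.0 ± 5.66 CPM (SD, n = 3). The log2 fold change of 0.60 ± 0.27 had the smallest p of the members (SE, unadjusted p 0.0599 and adjusted p 0.852 by edgeR, 95% interval −0.032 to 1.23). The unadjusted p of Per2 was 0.0667 with DESeq2 and 0.0493 with upper-quartile factors, which passed the criteria beside 2.61% of all genes. The estimate was 0.36 without insulin 3 and 0.30 (unadjusted p 0.281 by edgeR) with the GC offset. On that scale the groups overlapped, with vehicle 2 at 4.18 log2 CPM above insulin 1 (3.82) and insulin 2 (4.08).

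Per3 (ENSMUSG00000028957, chr4:151003652-151044665, minus strand), the period gene with the smaller known part in the oscillation, was at 7.77, 10.5 and 9.01 CPM with vehicle and at 9.82, 8.62 and 9.78 CPM with insulin. The insulin mice lay inside the vehicle range. Its log2 fold change was 0.049 ± 0.24 (SE, unadjusted p 0.843 by edgeR, 95% interval −0.50 to 0.60) and turned to −0.17 with the GC offset. Camta1 overlaps Per3 on the same strand at 2.27 to 4.10 CPM, so some of these reads may be shared.

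The Cry genes encode the cryptochromes, which carry most of the direct repression of CLOCK and BMAL1. Cry1 (ENSMUSG00000020038, chr10:85131700-85185064, minus strand) was at 12.7, 15.5 and 7.06 CPM with vehicle and at 7.43, 8.53 and 17.4 CPM with insulin. Each group held both low and high mice, and insulin 3 was the highest of all and vehicle 3 the lowest. For Cry1 the log2 fold change was −0.077 ± 0.42 (SE, unadjusted p 0.857 by edgeR, 95% interval −1.04 to 0.89), and its sign depended on which mouse was left out. It was −0.26 with the GC offset, where vehicle 2 was the highest library (4.24 log2 CPM, insulin 3 at 4.04). Cry2 (ENSMUSG00000068742, chr2:92403646-92434043, minus strand) was at 27.9, 22.5 and 30.4 CPM with vehicle and at 33.6, 29.5 and 31.2 CPM with insulin. Vehicle 3 stood among the insulin mice, while vehicle 1 and vehicle 2 were below all of them. The log2 fold change of Cry2 was 0.22 ± 0.21 (SE, unadjusted p 0.329 by edgeR, 95% interval −0.27 to 0.72) and turned to −0.13 with the GC offset.

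The Nr1d genes encode the heme-binding REV-ERB receptors, which silence Arntl and many metabolic genes of the liver. Nr1d1 (ENSMUSG00000020889, chr11:98767932-98775333, minus strand) was at 14.0, 4.91 and 44.2 CPM with vehicle and at 17.6, 13.1 and 10.9 CPM with insulin. The vehicle mice differed 8.99-fold among themselves and the insulin mice 1.61-fold, with vehicle 3 above and vehicle 2 below all insulin mice. The means were 21.03 ± 20.5 and 13.9 ± 3.43 CPM (SD, n = 3). With all 6 libraries the log2 fold change was −0.60 ± 0.67 (SE, unadjusted p 0.397 by edgeR, 95% interval −2.15 to 0.95), and −0.77 with the GC offset. It was 0.55 without vehicle 3, and −1.06 (unadjusted p 0.0492 and adjusted p 0.888 by edgeR) without vehicle 2, where 3.60% of all genes passed the criteria. Nr1d1 overlaps Thra, which encodes a thyroid hormone receptor on the opposite strand. Thra was at 5.45, 3.07 and 8.82 CPM with vehicle and at 7.02, 7.75 and 6.04 CPM with insulin, so it too was lowest in vehicle 2 and highest in vehicle 3. Whether the counting used strand is not given in the sources used here, and the part of shared reads in the Nr1d1 values was not tested.

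Nr1d2 (ENSMUSG00000021775, chr14:18204054-18239127, minus strand), the paralogue that acts beside Nr1d1, was at 56.0, 136 and 82.5 CPM with vehicle and at 53.5, 64.5 and 50.5 CPM with insulin. Vehicle 2 and vehicle 3 were above all insulin mice, while vehicle 1 stood among them. The means were 91.7 ± 41.0 and 56.2 ± 7.41 CPM (SD, n = 3). The log2 fold change of −0.71 ± 0.34 was the furthest from 0 of the 9 members (SE, unadjusted p 0.0693 by edgeR, 95% interval −1.48 to 0.071), and the unadjusted p was 0.0586 with DESeq2. Without vehicle 1 it was −0.96 with an unadjusted p of 0.0156 (adjusted p 0.503 by edgeR), in a fit where 9.89% of all genes passed. It was smaller without vehicle 2 (−0.30), with the GC offset (−0.43) and with voom and sample quality weights (−0.18). Both Nr1d transcripts were higher in vehicle 3 than in any insulin mouse, but in vehicle 2 Nr1d1 was at its lowest and Nr1d2 at its highest. With the GC offset both extremes moved by a narrow margin. Nr1d1 was then lowest in insulin 3 (3.213 log2 CPM, vehicle 2 at 3.217), and Nr1d2 was highest in vehicle 3 (6.563, vehicle 2 at 6.551). Nr1d1 has 56.8% GC and Nr1d2 41.8% GC.

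**Figure D2:**
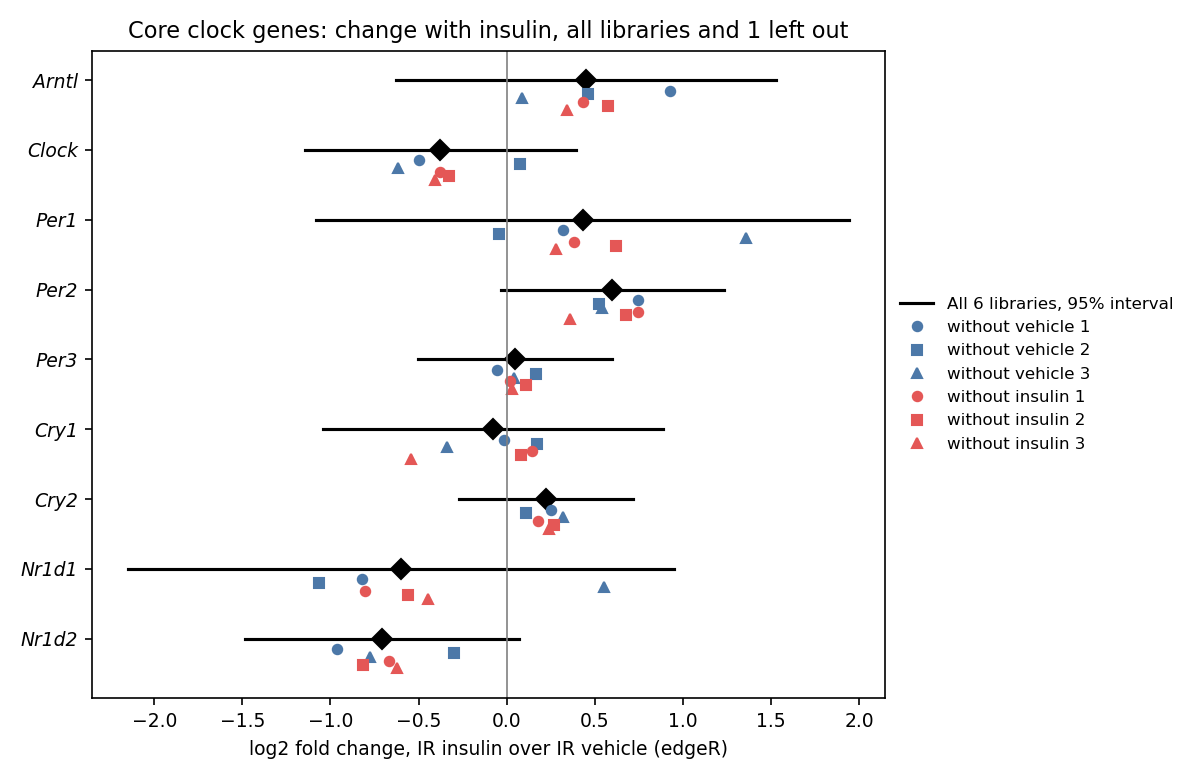
Log2 fold change of insulin over vehicle (x axis, edgeR) for each tested clock gene, with all 6 libraries (black diamond, 95% interval) and with each library left out in turn (coloured symbols). All 9 intervals cross 0, and leaving out vehicle 3 carries Nr1d1 to 0.55 and Per1 to 1.36.

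The 6 largest deviations of a member from the median library lay in vehicle 2 and vehicle 3. Vehicle 3 combined the lowest Arntl with the highest Nr1d1 and Per1, at −1.45, 1.70 and 0.71 log2 units from the median library. With the GC offset these deviations were −1.39, 1.62 and 0.70, so they were nearly as large. Vehicle 2 had low Per1 (−2.48) and Nr1d1 (−1.45) with high Nr1d2 (1.18) and Clock (0.94). With the GC offset its deviations were −1.01, −0.44, 0.58 and 0.29 in the same order, each smaller than before. The offset enlarged the deviation of vehicle 2 for Cry1 (0.57 to 0.89) and Per3 (0.16 to 0.63) and turned that of Cry2 from −0.41 to 0.48. Without the offset, insulin 3 held the largest deviation of Per2 and of Cry1, 0.74 log2 units for each. With the offset these were 0.56 for Per2 and 0.69 for Cry1, and the largest deviation of Cry1 was that of vehicle 2 (0.89). Vehicle 1 stayed within 0.50 log2 units of the median library for all 9 members.

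**Figure D3:**
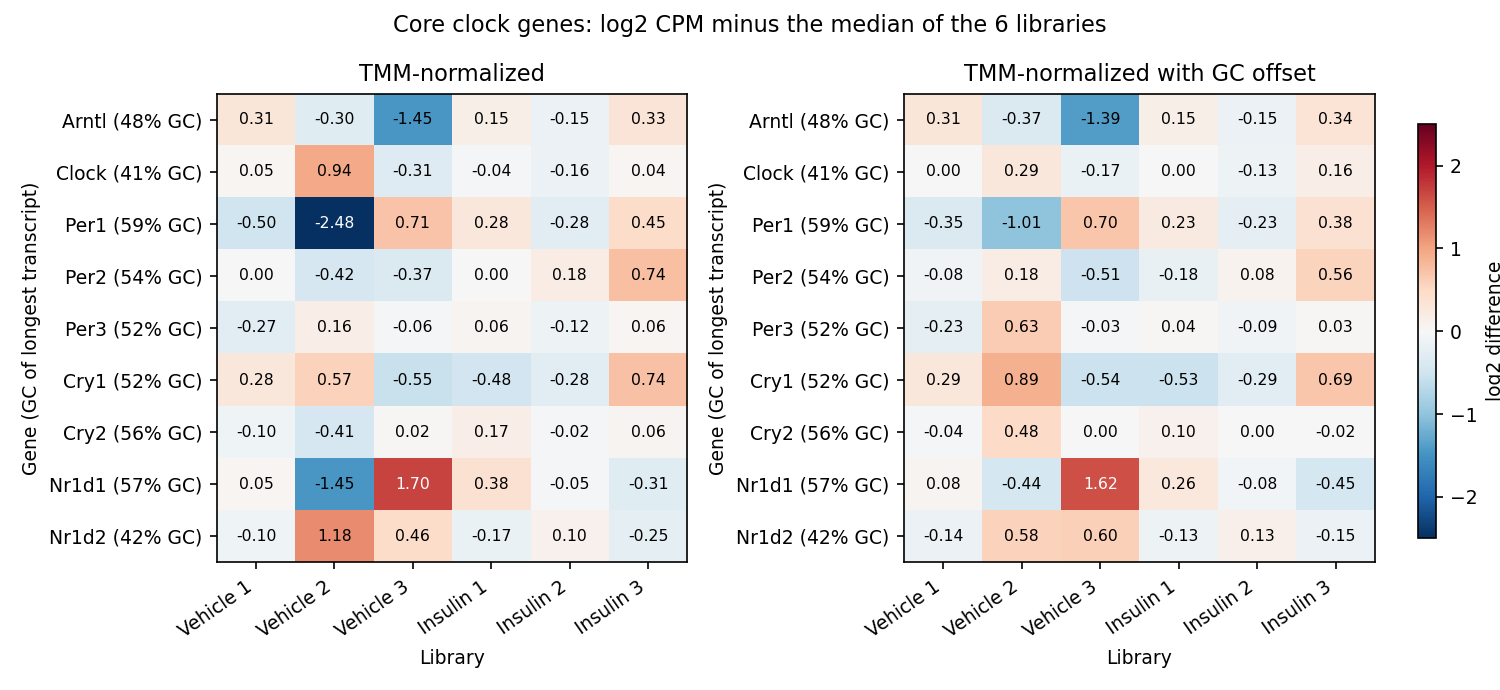
Log2 CPM of each tested clock gene (rows, with GC content) minus the median of the 6 libraries (columns), before and after an offset for GC content. The low Arntl and high Nr1d1 of vehicle 3 stand in both panels, and the low Per1 and Nr1d1 of vehicle 2 shrink to −1.01 and −0.44 in the right panel.

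To set activators against repressors, the mean log2 CPM of Arntl and Clock minus that of the 7 repressors was taken in each library. Npas2 was left out of the activators because of its counts of 0 to 4. The balance was −0.39, 0.067 and −1.82 log2 units in vehicle 1, 2 and 3, and −0.64, −0.75 and −0.69 in insulin 1, 2 and 3. The 3 insulin mice were thus nearly alike, and the vehicle mice lay on both sides of them. Group means were −0.71 ± 0.98 and −0.69 ± 0.055 (SD, n = 3), a difference of 0.020, given as a description with no test. The difference was not stable, at 0.18, 0.41 and −0.53 without vehicle 1, 2 and 3 and at 0.39 with the GC offset. With the GC offset the vehicle values were −0.33, −0.78 and −1.59 and the insulin values −0.45, −0.62 and −0.45, with an SD of 0.64 against 0.099. Vehicle 3 kept the most repressor-weighted value under both scalings, while vehicle 2 moved from above to below the insulin mice.

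Arntl and Nr1d1, from opposite arms of the loop, were also set against each other. Vehicle 3 had the lowest Arntl and the highest Nr1d1, so its lowest difference follows from those values and adds no further observation. The log2 level of Arntl minus that of Nr1d1 was −1.69, −0.81 and −5.10 with vehicle and −2.18, −2.06 and −1.31 with insulin, in CPM not divided by length. The other 5 mice lay well above vehicle 3. Across the 6 libraries Arntl and Nr1d1 correlated at a Pearson's r of −0.58, at −0.93 without vehicle 2 and at 0.64 without vehicle 3. The negative r thus rested on vehicle 3, and it is a description over libraries that also differ in depth and GC slope. Within the repressors, the Per and Cry genes had a median log2 fold change of 0.22, with 4 of 5 above 0, and both Nr1d genes were below 0. The Per and Cry median with the GC offset was −0.13, with 2 of 5 above 0, so this contrast of arms did not hold, and none of these members passed the test.

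**Figure D4:**
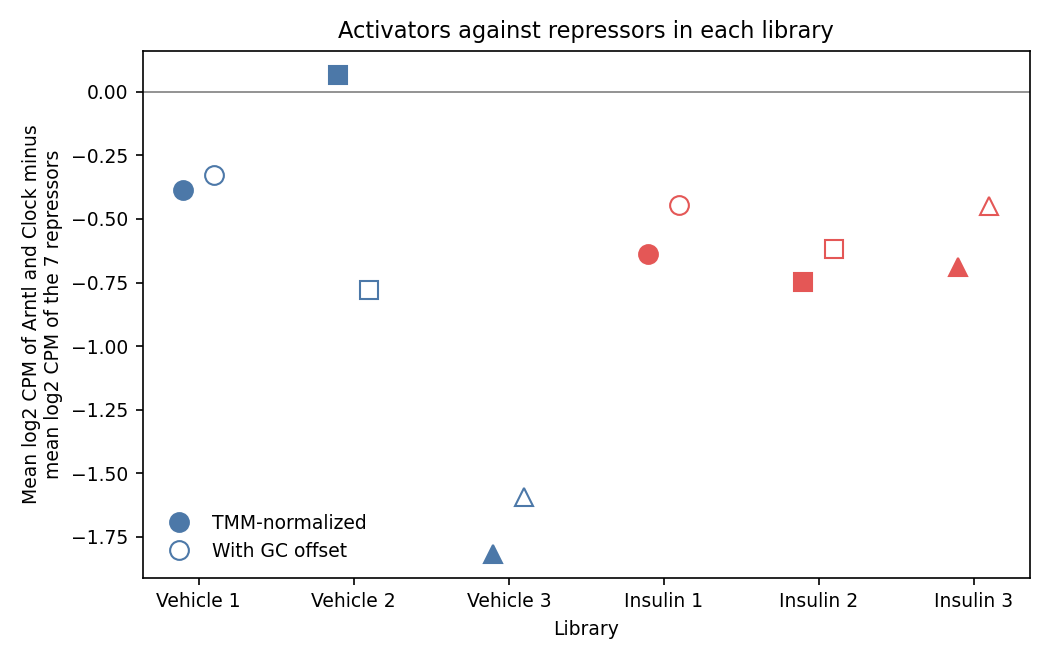
Mean log2 CPM of Arntl and Clock minus the mean of the 7 repressors (y axis) in each library, TMM-normalised (filled) and with the GC offset (open). The insulin libraries lie between −0.75 and −0.45 on both scalings, and vehicle 3 lies at −1.82 and −1.59.

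The spread among mice of a group was wide for some members and narrow for others. Among the vehicle mice, log2 CPM spanned 3.19 for Per1 and 3.14 for Nr1d1, more than in 96.3% and 96.1% of all genes tested. These ranges were 1.71 and 2.06 with the GC offset. Arntl spanned 1.76, Nr1d2 1.28, Clock 1.26 and Cry1 1.12. Cry2 (0.44), Per3 (0.43) and Per2 (0.42) were at the other end, near the 14.9th, 14.5th and 14.0th percentile of all genes. That order depended on the scaling, since with the GC offset Clock was the narrowest (0.46), Cry2 was at 0.51, Per2 at 0.69 and Per3 at 0.85. Among the insulin mice the widest member was Cry1, at 1.22 and the 94.1st percentile, while Clock, Cry2 and Per3 spanned 0.19 to 0.20.

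The vehicle range was the wider one in 7 of 9 members (77.8%), the exceptions being Per2 and Cry1, against 85.3% of all genes tested. The wider vehicle spread was therefore a feature of most genes and not particular to the clock. Median ranges of the members were 1.26 with vehicle and 0.48 with insulin, against 0.99 and 0.35 over all genes. With the GC offset they were 0.85 and 0.49, against 0.77 and 0.35. Vehicle 2 was the highest library for 3 members and the lowest for 4, against 35.8% and 37.4% of all genes, and vehicle 3 was highest for 2 and lowest for 3, against 23.4% and 23.8%.

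**Figure D5:**
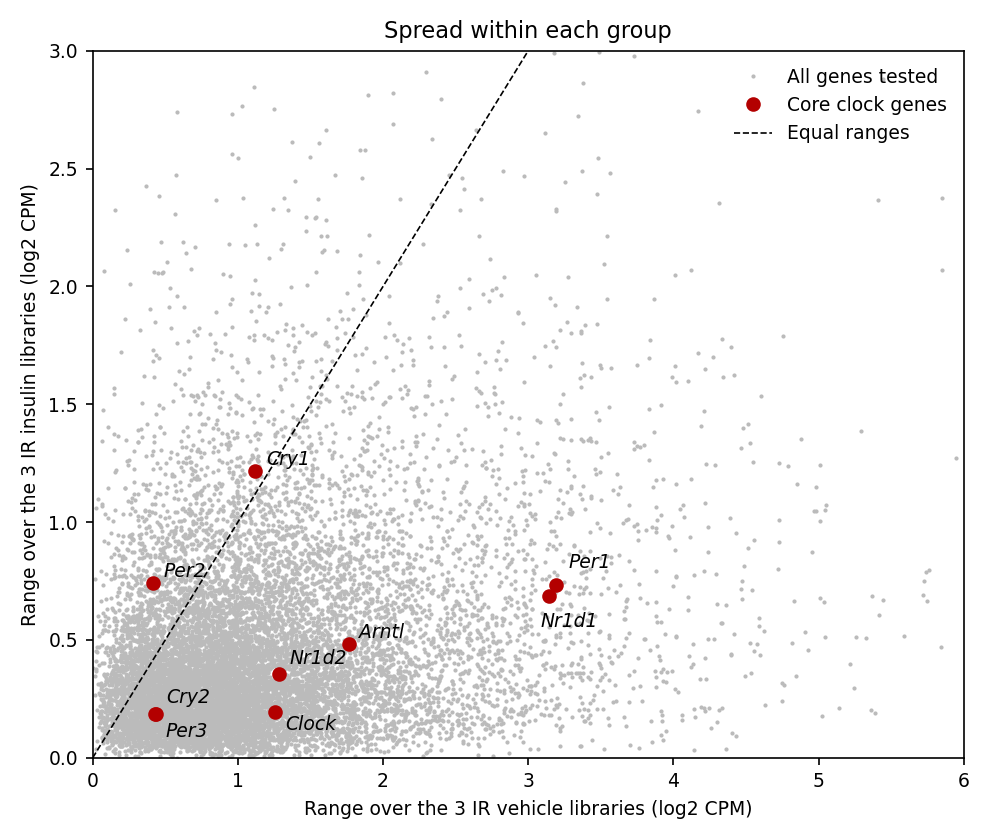
Range of log2 CPM over the 3 vehicle mice (x axis) and over the 3 insulin mice (y axis) for all genes tested (grey, 40 of them beyond the axes) and the 9 clock genes (red), with a line of equal ranges. Per1 and Nr1d1 lie far to the right, at 3.19 and 3.14, and Per2 and Cry1 are the members above the line.

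The wider clock network was read from a list of 28 further genes, of which 27 were tested and Rorb had 0 counts in each library. Of the 27, 9 were higher and 18 lower with insulin, against 6501 higher and 6876 lower of all genes tested. Their median log2 fold change was −0.23. Groups did not overlap for 2 of the 27, Nfil3 and Hlf, both lower, against 6.04% of all genes in that direction and 12.3% in either. In the test, 2 of the 27 passed the criteria of the study, Nfil3 and Rora, both lower, against 1.86% of all genes in that direction. Neither passed an adjusted p of 0.05, and all 27 had an adjusted p of at least 0.852 (edgeR). Nfil3 encodes E4BP4, a repressor at D-boxes. It was at 15.8, 16.9 and 16.8 CPM with vehicle and at 9.59, 9.83 and 13.3 CPM with insulin, so the vehicle mice agreed closely and all insulin mice were below them. The log2 fold change of Nfil3 was −0.60 ± 0.23 (SE, unadjusted p 0.0324 by edgeR), and −0.94 with the GC offset. On that scale the vehicle mice no longer agreed closely, with vehicle 2 at 4.73 log2 CPM against 3.93 and 3.95 in the others. All insulin mice stayed below them, at 3.10 to 3.57 log2 CPM. Nfil3 did not pass with the replicate block (unadjusted p 0.0623), with no filter on low counts, or without vehicle 1, vehicle 3, insulin 1 or insulin 2.

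Rora encodes RORα, the activator that competes with the REV-ERB receptors at the Arntl promoter. It was at 38.2, 89.8 and 56.6 CPM with vehicle and at 31.7, 35.3 and 39.9 CPM with insulin. The groups overlapped, since vehicle 1 was below insulin 3, and the highest values were again those of vehicle 2 and vehicle 3. Its log2 fold change was −0.79 ± 0.32 (SE, unadjusted p 0.0414 by edgeR), and it was −0.41 without vehicle 2 and −0.48 with the GC offset, neither of which passed. Nor did it pass with the replicate block (unadjusted p 0.0547), by voom, or without vehicle 3 or any 1 of the insulin libraries.

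Hlf, a D-box activator, and Sirt1, the NAD-dependent deacetylase that acts on clock proteins, had the next smallest p values. Hlf was at 55.5, 66.4 and 63.7 CPM with vehicle and at 42.8, 47.4 and 51.6 CPM with insulin. All vehicle mice were above all insulin mice, and the log2 fold change was −0.39 ± 0.20 (SE, unadjusted p 0.0932 by edgeR). It was −0.27 with the GC offset, and the groups overlapped, vehicle 2 at 5.74 and insulin 3 at 5.78 log2 CPM. Sirt1 was at 8.88, 21.1 and 13.2 CPM with vehicle and at 9.27, 8.49 and 11.3 CPM with insulin, with overlapping groups. Its log2 fold change was −0.57 ± 0.34 (SE, unadjusted p 0.132 by edgeR). It was −0.19 without vehicle 2, −0.37 with the GC offset and −0.82 without vehicle 1, where it passed the criteria (unadjusted p 0.0337).

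A pair of direct clock outputs, chosen after their values were seen, had their extremes in the same mice as Nr1d1. Dbp, which encodes a D-box activator driven by E-boxes, was at 19.9, 5.59 and 70.2 CPM with vehicle and at 30.6, 33.0 and 18.1 CPM with insulin. Ciart, which encodes a repressor of CLOCK and BMAL1, was at 4.92, 1.60 and 15.1 CPM with vehicle and at 7.65, 4.72 and 4.06 CPM with insulin. Both were lowest in vehicle 2 and highest in vehicle 3, as Nr1d1 and Per1 were. With the GC offset the high in vehicle 3 stayed for all 4 genes, while Dbp and Nr1d1 were lowest in insulin 3. Other outputs on the list differed. Without the offset, Tef was also highest in vehicle 3 but lowest in vehicle 1, and Nampt was highest in vehicle 2 and lowest in vehicle 3. The log2 fold changes of Dbp and Ciart were −0.23 ± 0.75 and −0.40 ± 0.70 (SE), and neither passed the test.

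The genes most like Arntl and Nr1d1 were taken from 10625 tested genes with at least 50 normalised counts on average, by Pearson's r of log2 CPM over the 6 libraries. The r values describe likeness over 6 libraries that share depth and GC effects, and no p is attached to them. For Arntl, the 5 highest were Eif4g3 (0.996), Adra1a (0.996), 1700037H04Rik (0.993), Cipc (0.991) and Pnpt1 (0.990). Cipc, which encodes a CLOCK-interacting repressor, was at 52.2, 43.9 and 24.9 CPM with vehicle and at 48.2, 45.5 and 53.6 CPM with insulin. It was lowest in vehicle 3, as Arntl was, which follows from its selection by r. The 5 lowest for Arntl were Ndufb9 (−0.991), Cyp39a1 (−0.989), Lppos (−0.989), Gm20319 (−0.986) and Lipc (−0.986). Cyp39a1, an oxysterol hydroxylase of bile acid synthesis, was at 69.6 CPM in vehicle 3 and at 8.51 to 14.9 CPM in the other 5 libraries.

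For Nr1d1, the 5 highest were Gm15427 (0.998), Ndufa6 (0.996), Hlx (0.995), Gm9826 (0.994) and Klf2 (0.993). Klf2, a transcription factor best known from endothelium, was at 7.46, 2.39 and 21.4 CPM with vehicle and at 6.37 CPM in insulin 3, with the other 2 insulin mice between vehicle 1 and vehicle 3. Among the lowest for Nr1d1 were Acbd3 (−0.998), Sike1 (−0.997), Zfp507 (−0.996) and Slc35e3 (−0.995). Acbd3 was at 27.4, 40.8 and 18.7 CPM with vehicle and at 26.4, 28.6 and 31.4 CPM with insulin. It was highest in vehicle 2 and lowest in vehicle 3, the reverse of Nr1d1, which follows from its selection by r.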

How the data were processed

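RNA sequencing was read from 6 livers. By the methods of the study, libraries were made with the NEBNext Ultra kit and run on an Illumina HiSeq, and the authors aligned the reads with Bowtie2 2.2.3 to mouse build 38 (mm10). The deposited table holds raw whole-number counts per gene, neither normalised nor pooled. The counting program, annotation and use of strand are not given in the sources used here.

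Counts were compared with edgeR 4.0.16 (R 4.3.3; TMM, filterByExpr with min.count 10 and min.total.count 15, quasi-likelihood F test, 3 against 3, no covariate) and adjusted by Benjamini-Hochberg over 13377 genes. The fit was also run on simulated counts, which spread less than these data and carried no GC slope, so that run does not show how it performs here. Log2 CPM used a prior count of 2. Coordinates, length and GC content came from GENCODE M21, matched by identifier for 54495 of 54532 genes, and promoter windows from RefSeq. The GC offset was a loess curve (span 0.5) per library. Library totals of 18449986 to 21827619 counts limited precision less than the spread between libraries (biological coefficient of variation 0.357). Each library came from a separate mouse, so mouse and library effects in this spread cannot be told apart.

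The 10 members and the lists were chosen with earlier results of these data known. Named beside the members were, of the 28 other clock genes, the 4 with the smallest p and any with p under 0.05, and the 5 most and 5 least like Arntl and Nr1d1 among genes with a mean of at least 50 normalised counts. Of the genes picked in this way, 1 is not reported here. Further genes were picked with their values in view. Alternatives were RLE and upper-quartile factors, no low-count filter, each library left out, the replicate block, the GC offset, both together, DESeq2 1.42.0 and limma 3.58.1 voom with and without sample weights.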

Additional observations from a re-analysis of the deposited data

How the results depend on the processing

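With 3 mice a group and differing vehicle libraries, the intervals of Per1, Nr1d1 and Arntl are wide, Arntl rests on 25 to 94 reads per library, and Npas2 is below the filter. The time of day at collection and shared reads of overlapping genes were not tested.

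The count of members past the study's criteria, and under an unadjusted p of 0.05, was 0 with all libraries, 1 with upper-quartile factors (Per2) and 0 to 1 with 1 library left out. The 1 was Nr1d2 without vehicle 1, Nr1d1 without vehicle 2 and Per1 without vehicle 3. Of the 27 other clock genes, 2 passed, against 1 with no filter on low counts, with the replicate block, with the GC offset, with voom and with voom and sample quality weights, and 0 to 2 with 1 library left out (0 without vehicle 3, insulin 1 or insulin 2). The 1 gene was Rora with no filter, Nfil3 with the GC offset and both voom fits, and Noct, a clock-controlled gene, with the block. Of all genes, 383 passed, against 742 with no filter on low counts, 213 with voom and sample quality weights, and 90 (without insulin 1) to 1323 (without vehicle 1) with 1 library left out. The median log2 fold change of the 7 repressors, 0.049, ran from −0.017 to 0.32 (without vehicle 3) with 1 library left out, and it was −0.17 with the GC offset, where the median of Arntl and Clock went from 0.037 to 0.22.

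With 1 library left out, signs turned for Clock (−0.61 to 0.073, above 0 without vehicle 2), Per1 (−0.046 to 1.36, below 0 without vehicle 2), Per3 (−0.053 to 0.17, below 0 without vehicle 1), Cry1 (−0.54 to 0.17, above 0 without vehicle 2, insulin 1 or insulin 2) and Nr1d1 (−1.06 to 0.55, above 0 without vehicle 3). They also turned for Per3 (−0.17) and Cry2 (−0.13) with the GC offset, and for both (−0.13 and −0.12) with the replicate block and GC offset together. The cause was not tested. Arntl, Per2 and Nr1d2 kept their direction in all 15 alternatives.

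Replicate numbers are shared by the groups. Deviations of same-numbered libraries correlated at −0.04, 0.07 and 0.02, and those of unlike-numbered libraries at −0.11 to 0.089. Whether the numbers stand for a pairing of mice is not given in the sources used here, and these correlations cannot settle it. With the replicate block, 0 members and 321 genes passed the study's criteria.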
